A study of Mus musculus with 20 samples.

Results

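Sox2KE-alone sites are places in the mouse genome where the mutant protein Sox2KE gave a ChIP-seq peak in both of its embryonic stem (ES) cell libraries and where no peak of Sox2, Sox17 or Sox17EK in ES cells was centred nearby. They were chosen by these Sox peaks. The 5836 strongest peaks of each of the 8 ES Sox libraries were joined into 23796 union sites, and a site counted as bound where the midpoint of a peak of the whole list lay within 200 bp. Of the union sites, 672 (2.82%) were Sox2KE-alone sites. They were 8.04% of the 8362 union sites bound in both Sox2KE libraries. Most of those 8362 sites were shared: 83.9% had a Sox2 peak, 53.1% a Sox17EK peak and 37.9% a Sox17 peak in at least 1 library.

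KH2 ES cells were treated with doxycycline at 1 µg/ml to express Sox2KE, Sox2, Sox17 or Sox17EK, each from its own line. Each Sox protein had 2 libraries, A and B, pulled down with the V5 antibody for Sox2KE, Sox2 and Sox17EK, and with the Sox17 and V5 antibodies named for Sox17. Oct4 (Pou5f1) libraries of the same lines numbered 2 each for the Sox2KE, Sox2 and Sox17EK lines and 1 for the Sox17 line, and their labels name the Oct4 and the V5 antibody. F9 embryonal carcinoma cells gave 1 Oct4 library after 1 µM retinoic acid (F9+RA), 1 Oct4 library untreated (F9) and 1 Sox17 library after retinoic acid, each with the named antibody alone. Every result on a Sox protein therefore comes from 1 line, in cells that also held their own Sox2. Whether A and B were grown apart is not stated, so the spread between them may be technical. The spread behind each p-value also holds differences between lines.

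Sox2 and Oct4 are regulators of pluripotent cells that bind DNA side by side on a composite element, a Sox motif next to an octamer. Sox17 is a regulator of endoderm, and with Oct4 it prefers a compressed form of that element with less space between the parts. Sox2KE carries glutamate in place of a lysine of the HMG box that faces Oct4 on DNA, the residue found in Sox17, and Sox17EK carries the reverse exchange. Retinoic acid turns F9 cells into cells resembling primitive endoderm, a lineage in which Sox17 is active.

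Most Sox2KE peaks at the 672 sites ranked high in each list, but not all did. The score of a peak is the authors' deposited number, which fits 10 times −log10 of the p-value by its lowest value of 50 in each list, although no label states this. The score ran from 50.1 through a median of 260.8 to 1849.0 in library A, and from 80.4 through 714.4 to 3100.0 in library B. The median site stood at percentile 85.6 of the A list and percentile 93.0 of the B list. The lower quartiles were 80.4 and 87.0, and the lowest sites stood at percentiles 0.0996 and 30.6. Percentiles in A and B had a rank correlation of only 0.107 over the sites. The peaks spanned a median of 823 bp in A and 1156 bp in B, against medians of 589 and 680 bp over the whole lists. Of the 672 sites, 219 were among the strongest peaks of both lists, 266 of A only and 187 of B only. These values belong to the choice of the sites and describe them only. The count rested on library A more than on B: 1885 sites were bound by Sox2KE alone when A was left out of the rule, and 846 when B was left out.

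The word alone did not hold for all of them. The rule compares midpoints, and the Sox2KE peaks were wide, so a site could sit beside or inside a peak of another Sox protein. At 252 of the 672 sites (37.5%), a Sox2KE peak shared at least 1 bp with a peak interval of another ES Sox library. Sox2 peaks did so most often, at 185 sites in Sox2 A and 151 in Sox2 B. Sox17EK peaks overlapped 98 sites in A and 64 in B, and Sox17 peaks 71 in A and 33 in B. The 420 sites (62.5%) whose peaks overlapped no other Sox peak are called separate below, and the 252 others overlapping. This division was made after the values were seen.

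Distances to the nearest midpoint of the 6 other ES Sox lists started at the 200 bp limit of the rule and reached beyond 100 kb. The midpoint lay between 200 and 300 bp away for 148 sites (22.0%) and between 300 and 500 bp for 81. It lay between 500 and 1000 bp for 28 sites, and the median distance was 2490 bp. At the limit itself, the member at chr2:58477434-58479454 (mm9) had another Sox midpoint at 202 bp. The excluded site at chr7:80761533-80763996 had its nearest at 200 bp. Here and below, a region runs from the lower start to the higher end of its Sox2KE A and B peaks.

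**Figure D1:**
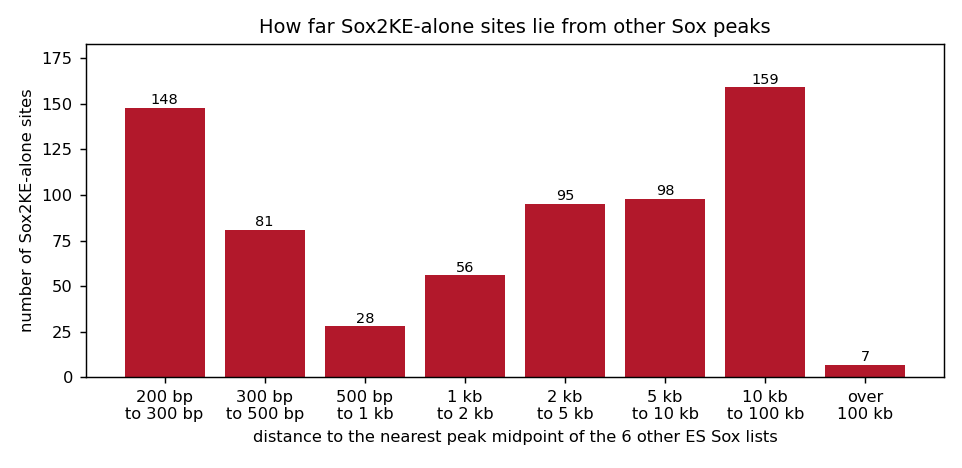
Number of Sox2KE-alone sites (y axis) by distance to the nearest peak midpoint of the 6 other ES Sox lists (x axis, bins of unequal width). Of the 672 sites, 148 lie between 200 and 300 bp of another Sox midpoint, 28 between 500 and 1000 bp, and 159 between 10 and 100 kb.

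Overlapping and separate sites differed in their strongest peaks. The 10 Sox2KE-alone sites of highest mean percentile were all overlapping. At chr1:35288625-35291499 the Sox2KE scores were 1849.0 and 2983.1, and overlapping Sox2 peaks scored 1826.4 and 1575.3. At chr8:13648128-13650014 they were 1188.1 and 2994.7, beside weaker Sox2 peaks of 210.0 and 76.7. Oct4 of the Sox2KE line scored 578.9 and 346.1 at this second site, and no other ES line had an Oct4 peak there. Separate sites reached at most 655.0 in A and 2994.4 in B, with medians of 262.7 and 660.8. The overlapping sites had medians of 257.4 and 809.2. A wide peak overlaps others more easily, so the split itself puts wide peaks among the overlapping sites, whose median widths were 1083 and 1580 bp.

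A few separate sites, named after their values were seen, show what the class looks like where no other Sox peak reaches it. At chr14:30668098-30669321, Sox2KE scored 616.0 and 2279.1, the nearest other ES Sox midpoint was 13953 bp away, and Oct4 of the Sox2KE line scored 1428.9 and 362.8. At chr1:39771894-39774212, Sox2KE scored 655.0 and 1690.0 and Oct4 of the same line 837.0 and 304.6, and none of the other 8 Oct4 and F9 lists covered the site. At chr13:111486635-111487868, Sox2KE scored 496.1 and 1258.6 and Oct4 of the line 748.4 and 168.9, with the nearest other Sox midpoint 174925 bp away. In each of these regions the Sox2KE line had a peak in both Sox2KE libraries and in both Oct4 libraries, whose labels also name V5. At chr5:146232926-146233688, where Sox2KE scored 614.8 and 995.0, the Oct4 scores of the line were only 172.3 and 64.5. At chr14:69798801-69800497, Sox2KE scored 502.8 and 883.3 and no Oct4 or F9 list held a peak. The genes near these sites are not named, because the gene table used here belongs to another genome build than the lists.

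Oct4 peaks stood at most Sox2KE-alone sites in the Sox2KE line and at few in the other lines. For this comparison the 32848 strongest peaks of each Oct4 and F9 list were used, and a site had a peak where a midpoint lay within 200 bp. In the Sox2KE line, 70.2% of the 672 sites had an Oct4 peak in A and 58.3% in B (exact 95% intervals 66.6 to 73.7 and 54.5 to 62.1). In the Sox2 line the shares were 16.7% and 12.4%, in the Sox17 line 10.4%, and in the Sox17EK line 10.7% and 7.89%. Both Sox2KE-line libraries lay above all 5 others, with no overlap.

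Among all union sites the lines were much closer together. An Oct4 peak stood at 48.9% and 46.9% of them in the Sox2KE line, 49.9% and 50.4% in the Sox2 line, 47.2% in the Sox17 line, and 43.0% and 44.8% in the Sox17EK line. The Sox2KE-alone sites thus lay above the union in the Sox2KE line and below it in every other line. Moving the sites by 10 kb left shares of 1.04% to 1.93% in the 10 lists.

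Over libraries, the Oct4 share of Sox2KE-alone sites averaged 64.3% ± 8.42 in the Sox2KE line (SD, n = 2) and 11.6% ± 3.25 in the other lines (SD, n = 5), a difference of 52.7 percentage points. The exact two-sided permutation test gave p = 0.0952, the smallest that 2 against 5 libraries allow, and 0.190 after Benjamini-Hochberg adjustment over 4 tests. The design could not reach the threshold of 0.05. Keeping only the 10000 strongest Oct4 peaks reduced the difference to 21.7 points. The sites were chosen by Sox peaks of the Sox2KE line, and the Oct4 labels of all ES lines name V5 as well. Whether an Oct4 peak there marks Oct4, the tagged Sox2KE or both cannot be told apart.

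The same favour for the own line was present at the other sites of a single protein. Oct4 of the own line stood at 73.2% of Sox2-alone sites (n = 250), against 16.6% for the other lines. The means were 70.9% and 9.96% for Sox17-alone sites (n = 447), and 71.5% and 25.8% for Sox17EK-alone sites (n = 677). Sox2KE-alone sites, at 64.3% and 11.6%, had the lowest mean for the own line of the 4 classes, and whether they differed from the others in this respect was not tested.

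The gap between the Sox2KE line and the others was 67.2 points at separate sites and 28.5 points at overlapping ones. Oct4 stood at 77.9% and 64.3% of the 420 separate sites in the Sox2KE line. It stood at 4.52% and 4.76% in the Sox2 line, 4.76% in the Sox17 line, and 2.86% and 2.38% in the Sox17EK line, against 1.43% to 1.79% in these 5 lists after moving the separate sites by 10 kb. At the 252 overlapping sites the Sox2KE line had 57.5% and 48.4%, the Sox2 line 36.9% and 25.0%, the Sox17 line 19.8%, and the Sox17EK line 23.8% and 17.1%. Of the 153 sites with an Oct4 peak in a Sox2-line library, 33 were separate. Most Sox2KE-alone sites with an Oct4 peak of the Sox2 line were thus sites that another Sox peak touched. Separate sites were defined by the lack of overlap with Sox peaks of the other lines. The split itself thus favours fewer Oct4 peaks of those lines at separate sites and a wider gap there.

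**Figure D2:**
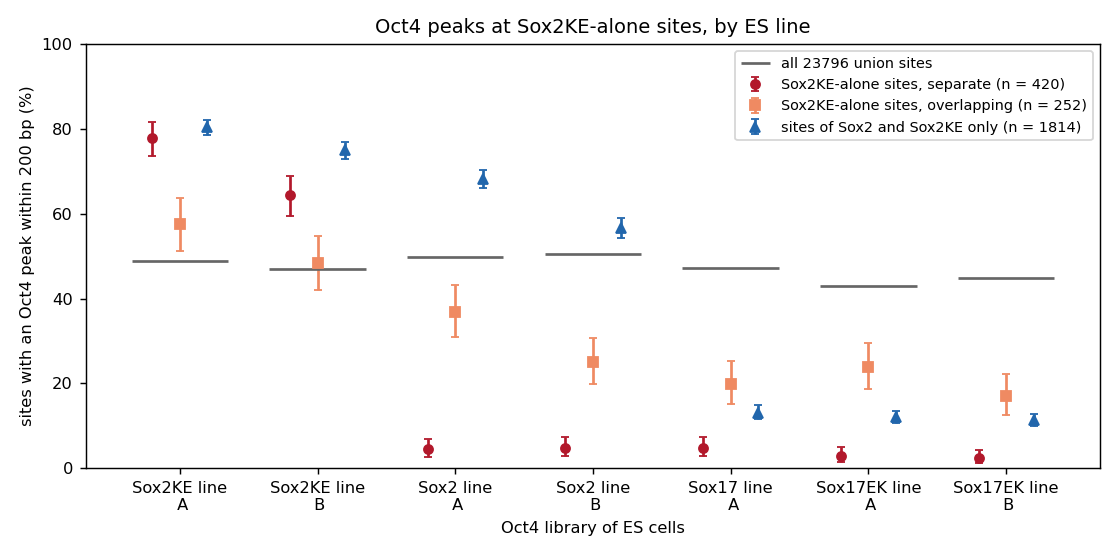
Share of sites with an Oct4 peak within 200 bp (y axis, %) in each of the 7 Oct4 libraries of ES cells (x axis), with exact 95% intervals for counting error as bars and the share of all union sites as grey lines. Separate Sox2KE-alone sites lie at 77.9% and 64.3% in the Sox2KE line and at 4.76% or less in the others.

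Site by site, 538 of the 672 (80.1%) had Oct4 in at least 1 library of the Sox2KE line and 326 (48.5%) in both, against 57.7% and 38.0% of union sites. Of these 326, 226 had no Oct4 peak in any library of another line. This was 33.6% of the 672 sites, against 3.89% of union sites. Among separate sites, 201 of 420 (47.9%) had this pattern of Oct4 in both Sox2KE-line libraries and nowhere else in ES cells, against 25 of 252 overlapping sites (9.92%). Oct4 in another line and not in the Sox2KE line was found at 29 sites (4.32%), against 26.7% of union sites. These patterns follow in part from the choice of sites by peaks of the Sox2KE line.

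At the other end, 13 sites (1.93%) had Oct4 in all 7 ES libraries, against 12.0% of union sites, and 3 of the 13 were separate. At chr7:6335388-6336474, Sox2KE scored 287.9 and 762.4, and a Sox17EK B peak of 186.3 overlapped it. Oct4 there scored 865.2 and 1018.8 in the Sox2KE line, 378.9 and 569.6 in the Sox2 line, 254.3 in the Sox17 line, and 540.6 and 194.7 in the Sox17EK line. F9+RA and F9 cells had Oct4 peaks of 586.0 and 349.6 at this site, and Sox17 of F9+RA cells had none.

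No Oct4 midpoint of any ES library stood at 105 sites (15.6%), the same share as the 15.6% of union sites. Of these 105, 51 (48.6%) lay inside an Oct4 interval of an ES library, against 47.2% of such union sites. The strongest Sox2KE-alone site, chr1:35288625-35291499, was among them: Oct4 intervals covered it with scores of 3100.0 and 1508.5 in the Sox2KE line, 3100.0 in Sox2-line A, 2240.3 in the Sox17 line, 1996.8 in Sox17EK-line A and 1851.6 in F9 cells. Their midpoints were more than 200 bp away. Counted by interval in place of midpoint, Oct4 covered 85.7% and 73.4% of the 672 sites in the Sox2KE line. In the 5 libraries of the other lines the shares by interval ran from 16.4% to 29.9%. Among union sites they were 65.8% and 62.9% in the Sox2KE line, 75.5% and 62.3% in the Sox2 line, 63.1% in the Sox17 line, and 66.9% and 63.4% in the Sox17EK line.

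Where Oct4 of the Sox2KE line had peaks at Sox2KE-alone sites, their median rank was somewhat above the middle of the compared peaks. The median Oct4 peak stood at percentile 68.5 of the compared peaks in A (472 sites) and percentile 55.1 in B (392 sites). At sites of Sox2 and Sox2KE only, the medians were 64.8 and 53.6. Median distances between the site and the Oct4 midpoint were 55.2 and 59.0 bp at Sox2KE-alone sites and 49.0 and 50.2 bp at sites of Sox2 and Sox2KE only. The fewer Oct4 peaks of the other lines at Sox2KE-alone sites also ranked above the middle. Their median percentiles were 58.1 and 77.1 in the Sox2 line, 64.9 in the Sox17 line, and 56.7 and 56.8 in the Sox17EK line.

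The sites of Sox2 and Sox2KE only, 1814 in number, hold peaks of Sox2 A and B as well and none of Sox17 or Sox17EK within 200 bp. Their rule differs from that of Sox2KE-alone sites only in the Sox2 midpoints. The sites differ in more: median Sox2KE peak widths were 763 and 934 bp, against 823 and 1156 bp at Sox2KE-alone sites. Sox2 peaks also overlapped 185 Sox2KE-alone sites in Sox2 A and 151 in Sox2 B. Oct4 of Sox2-line A stood at 16.7% of Sox2KE-alone sites and 68.2% of the sites with Sox2, a difference of -51.5 points, and Oct4 of Sox2-line B at 12.4% and 56.6%, a difference of -44.3 points. Oct4 of Sox2KE-line A stood at 70.2% of Sox2KE-alone sites and 80.4% of the sites with Sox2, a difference of -10.1 points, and Oct4 of Sox2KE-line B at 58.3% and 75.0%, a difference of -16.6 points. In the Sox17 and Sox17EK lines the differences were -2.70, -1.30 and -3.47 points.

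The Sox2KE-alone sites were lower in 7 of 7 libraries, with a mean difference of -18.6 points (SD of the differences 20.8). The exact two-sided sign-flip permutation test gave p = 0.0156, the smallest that 7 libraries allow, and 0.0625 after adjustment, so it did not pass. Adjusted over 4 tests, it could pass only if another of them also gave a low p-value. The sites of Sox2 and Sox2KE only were chosen by Sox2 peaks of the Sox2 line, and Sox2KE-alone sites by their lack. The choice itself thus favours lower Oct4 shares of the Sox2 line at Sox2KE-alone sites. The test over all 7 libraries cannot tell this effect of the choice from a difference in Oct4. Without the Sox2-line libraries the mean difference was -6.85 points. It was -10.2 points with Oct4 midpoints within 500 bp, -11.6 points with the site inside the Oct4 interval and -4.25 points with the 10000 strongest Oct4 peaks. Under these readings 4, 4 and 3 of the 7 libraries, none of them of the Sox2 line, were higher at Sox2KE-alone sites. For separate sites of both classes all 7 libraries were lower again, with -2.93 and -11.0 points in the Sox2KE line and -63.9 and -51.3 in the Sox2 line.

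Against sites of Sox17 alone and Sox17EK alone, the direction depended on the line. Oct4 of the Sox2KE line stood at 70.2% and 58.3% of Sox2KE-alone sites, against 9.40% and 10.7% of Sox17-alone sites and 5.02% in either library of Sox17EK-alone sites. Oct4 of the Sox17 line stood at 10.4% of Sox2KE-alone sites and 70.9% of Sox17-alone sites. Oct4 of the Sox17EK line stood at 10.7% and 7.89% of Sox2KE-alone sites and 68.8% and 74.2% of Sox17EK-alone sites. Over the 7 libraries the mean differences were 7.99 points from Sox17-alone sites (exact permutation p = 0.609, adjusted 0.609) and -12.2 points from Sox17EK-alone sites (exact permutation p = 0.531, adjusted 0.609). Without Sox2KE-line library A the first became -0.814 points, and without the Sox17-line library 19.4. Each class was chosen by Sox peaks of its own line, so the choice itself favours opposite signs in the own lines of the classes compared. The means also depend on how many libraries each line has. These tests therefore cannot tell whether Oct4 differed between the classes.

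The Sox2 line separated the mutant classes as well. Its Oct4 libraries had peaks at 16.7% and 12.4% of Sox2KE-alone sites, against 36.3% and 32.6% of Sox17EK-alone sites. Oct4 of the Sox17 line had peaks at 10.4% of Sox2KE-alone sites and 49.8% of Sox17EK-alone sites. Among union sites the shares were 49.9% and 50.4% in the Sox2 line and 47.2% in the Sox17 line. Sox2KE-alone sites thus lay far below the union in both lines. Sox17EK-alone sites lay below it in the Sox2 line and near it in the Sox17 line. Low shares outside the own line were not particular to Sox2KE-alone sites. The means there were 9.96% at Sox17-alone sites and 16.6% at Sox2-alone sites.

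Oct4 shares varied with the strength of the Sox2KE peak, and not in the same way in every line. By mean percentile of the Sox2KE score in A and B, Oct4 of Sox2KE-line A stood at 63.2% of the 136 sites under the 80th percentile, 71.1% of 325 up to the 90th, 80.3% of 137 up to the 95th and 60.8% of 74 above it. Oct4 of Sox2KE-line B gave 54.4%, 56.9%, 68.6% and 52.7% in the same order. Oct4 of Sox2-line A stood at 29.4% of the weakest sites and 12.9%, 10.9% and 20.3% of the others. Oct4 of the Sox17 line gave 19.9%, 9.54%, 5.84% and 5.41%, and Sox17EK-line B 15.4%, 6.15%, 5.84% and 5.41%.

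In the Sox2KE line the share was highest between the 90th and 95th percentile in both libraries, and in the other lines it was highest among the weakest sites. Only 19 of the 74 sites above the 95th percentile were separate. These 19 had Oct4 at 78.9% in Sox2KE-line A and 94.7% in B. Separate sites between the 90th and 95th percentile had 88.9% and 81.1% (90 sites), and those under the 80th 72.4% and 52.6% (76 sites). At sites of Sox2 and Sox2KE only, the share went up over all 4 groups, with 62.1%, 78.8%, 87.7% and 93.7% in Sox2KE-line A.

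**Figure D3:**
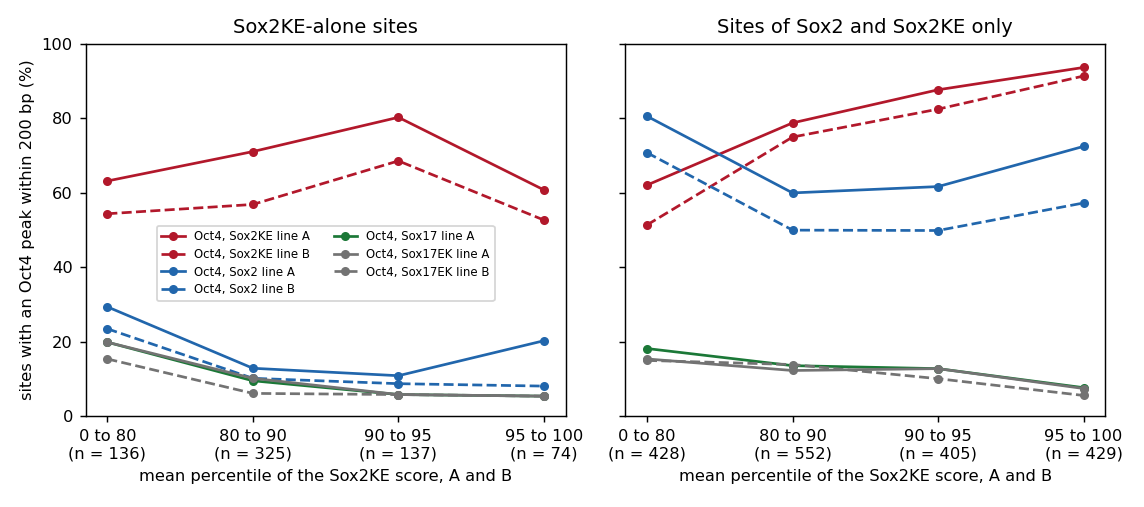
Share of sites with an Oct4 peak within 200 bp (y axis, %) by mean percentile of the Sox2KE score in libraries A and B (x axis, 4 groups, n below each), with a line for each Oct4 library of ES cells, for Sox2KE-alone sites (left) and sites of Sox2 and Sox2KE only (right). At Sox2KE-alone sites the Sox2KE line peaks at 80.3% in A and 68.6% in B between the 90th and 95th percentile.

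In F9 cells, Sox2KE-alone sites had Oct4 peaks more often after retinoic acid than before. Oct4 stood at 16.2% of the 672 sites in F9+RA cells (13.5 to 19.2) and at 10.4% in untreated F9 cells (8.21 to 13.0), a difference of 5.80 points (counting interval 2.08 to 9.53), or 10.1 points with midpoints within 500 bp. Among all union sites the shares within 200 bp were 35.4% in F9+RA and 35.8% in F9 cells, and those within 500 bp were not computed. Oct4 was present only in F9+RA cells at 65 Sox2KE-alone sites (9.67%, against 11.5% of union sites) and only in F9 cells at 26 (3.87%, against 11.9% of union sites). The share in F9+RA only was thus near that of the union, and the share in F9 only lay further below it. At the 420 separate sites it stood at 11.9% in F9+RA and 4.05% in F9 cells, with 42 sites in F9+RA only and 9 in F9 only. There was 1 library per condition, so the difference has no replicate check, and the intervals cover counting error only. The interval of the difference took the 2 shares as independent, although both were read on the same sites.

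The direction of this difference was not the same in all classes. Oct4 stood at 36.7% of Sox17-alone sites in F9+RA cells and 15.9% before treatment. At Sox2-alone sites it stood at 9.60% in F9+RA and 13.2% in F9 cells, and at Sox17EK-alone sites at 28.7% and 37.8%. At sites of Sox2 and Sox2KE only it was 10.1% in F9+RA and 12.8% in F9 cells. At sites of all 4 proteins Oct4 stood at 80.5% in F9+RA and 75.1% in untreated cells, a difference of 5.47 points and close to that of Sox2KE-alone sites. These are values of 1 library each. The counting intervals of F9+RA and F9 cells overlapped for Sox2-alone sites (6.25 to 13.9 and 9.26 to 18.0). They also overlapped for sites of Sox2 and Sox2KE only (8.74 to 11.6 and 11.3 to 14.5) and for sites of all 4 proteins (77.3 to 83.5 and 71.6 to 78.3).

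Sox17 of F9+RA cells had a peak at 94 of the 672 Sox2KE-alone sites, or 14.0% (11.5 to 16.8), against 17.1% of all union sites. At sites of Sox2 and Sox2KE only, 5.95% had one (4.91 to 7.14), at Sox2-alone sites 2.00% (0.653 to 4.61) and at Sox17EK-alone sites 3.55% (2.28 to 5.23). At Sox17-alone sites 35.8% had one (31.3 to 40.4), and at sites of Sox2KE and Sox17 only 38.8% of 85. Sox2KE-alone sites lay between these groups, and their interval overlapped none of those given. Among separate sites 14.8% had a Sox17 F9+RA peak, and 11 of the 94 sites lay inside a Sox17 peak of ES cells. In each of the 4 strength groups, 12.6% to 16.1% of Sox2KE-alone sites and 3.50% to 7.23% of sites of Sox2 and Sox2KE only had one. With midpoints within 500 bp the share of Sox2KE-alone sites was 24.7%. A wider window can only add peaks, and the union and the other classes were not read at 500 bp. This value therefore cannot be set beside the shares above.

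**Figure D4:**
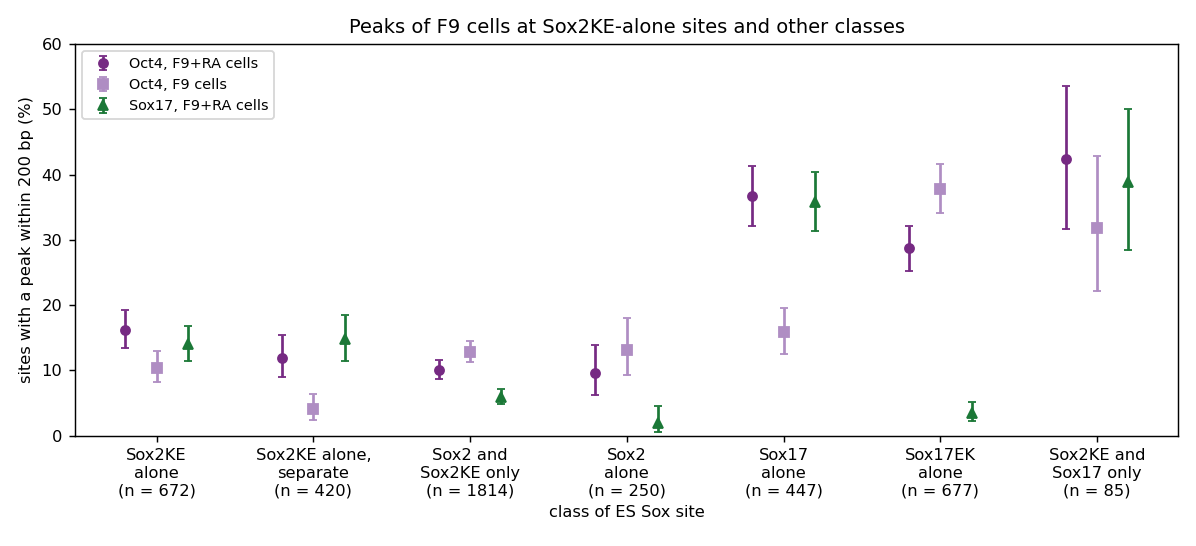
Share of sites with a peak within 200 bp (y axis, %) in the 3 lists of F9 cells, for Sox2KE-alone sites and other classes (x axis, n below each), with exact 95% intervals for counting error as bars. At Sox2KE-alone sites Oct4 lies at 16.2% in F9+RA and 10.4% in F9 cells, and Sox17 of F9+RA cells at 14.0%.

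Oct4 in F9+RA cells was more frequent at Sox2KE-alone sites that also had Sox17 there. Of the 94 Sox2KE-alone sites with a Sox17 F9+RA peak, 49 had Oct4 in F9+RA cells (52.1%, 41.6 to 62.5) and 12 in untreated cells (12.8%, 6.77 to 21.2). Of the 578 without one, 10.4% had Oct4 in F9+RA cells (8.02 to 13.2) and 10.0% in untreated cells (7.71 to 12.8). Among all union sites with a Sox17 F9+RA peak, 65.0% had Oct4 in F9+RA and 50.8% in untreated cells, and among those without one 29.3% and 32.7%. More Oct4 at sites with Sox17 was therefore a feature of the whole union, and the share in untreated cells was lower at Sox2KE-alone sites. Among separate sites, 34 of 62 with Sox17 (54.8%) had Oct4 in F9+RA cells and 5 (8.06%) in untreated cells, against 4.47% and 3.35% of the 358 without. At sites of Sox2 and Sox2KE only with Sox17, 44.4% of 108 had Oct4 in F9+RA and 26.9% in F9 cells. In the Sox2KE line, 45 of the 62 separate sites (72.6%) had Oct4 in both libraries, against 53.9% of the 358. Among all union sites this share was 38.0%. It was not split by Sox17 there, so whether the contrast is particular to Sox2KE-alone sites was not tested.

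A few strong separate sites of Sox2KE also had Sox17 peaks in F9+RA cells. At chr3:121271940-121273359, Sox2KE scored 518.3 and 2994.4 and Oct4 of the Sox2KE line 954.8 and 362.2. Sox17 of F9+RA cells scored 899.1 there, inside an Oct4 F9+RA interval of 611.8, and no F9 Oct4 peak covered it. At chr7:31631432-31632271, Sox2KE scored 545.9 and 1876.2, Oct4 of the Sox2KE line 1517.3 and 596.2, Oct4 of F9+RA cells 345.0 and Sox17 of F9+RA cells 108.4. At chr8:111130217-111131443 the Sox2KE scores were 522.3 and 2044.3, the Oct4 scores of the line 1242.1 and 192.2, Oct4 of F9+RA cells 350.7 and Sox17 of F9+RA cells 270.5, and Oct4 of the Sox17 line had a weak peak of 59.8. None of these 3 sites had a Sox17 peak in ES cells, and the nearest ES Sox midpoint of another protein was 6792, 26558 and 11878 bp away.

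Sox2KE-alone sites were spread over the chromosomes much as the union was. The share of sites on a chromosome was 0.804 to 1.40 times that of the union on the autosomes, highest for chromosome 19, with 29 sites. Chromosome X held 2 of the 672 sites, or 0.298%, against 1.12% of union sites. The sites were rarely close together: 50 of 652 neighbouring pairs lay within 100 kb, 11 within 10 kb, and the median distance between neighbours was 1671 kb.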

How the data were processed

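Of 20 samples, the peak lists of 18 were used; the 2 mock libraries are not analysed here. The authors deposited 1 interval list per sample without a header, with a score per peak and names in the style of MACS, with positions in mm9, a build named in the submitters' processing notes. The aligner was not given in the sources used here, nor were caller settings. Read depth was unknown. The union was built from the 5836 strongest peaks of each Sox list, but whole lists of 5836 to 71693 peaks decided where a Sox protein was bound or absent, so longer lists had more chances to match. The Oct4 and F9 lists were compared at 32848 peaks, the length of the shortest. The unit of start and end is another than a measurement (positions in bp). Starts were taken to count from 0 and are printed from 1.

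The sites, classes and lists were chosen with earlier results of these data known. Named sites were those of highest mean percentile in both Sox2KE lists: the 10 highest, the 4 highest of each Oct4 and Sox17 pattern, and those nearest to the distance limit. Separate sites named were chosen after their values were seen.

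Shares were computed with exact (Clopper-Pearson) 95% intervals, which cover counting error only. Exact permutation tests over Oct4 libraries took each library as a unit, although libraries of 1 line are not independent. They were adjusted together over 4 tests by the Benjamini-Hochberg method. Classes, shares and tests were tested on simulated lists. Alternatives changed list length, matching distance, overlap and libraries. Replicate letters were taken as names: A minus B differences correlated at -0.0521 to 0.0562 between lines over 672 sites. Python 3.11.15, NumPy 2.4.6, pandas 2.3.3, SciPy 1.17.1 and matplotlib 3.10.9 were used.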

Additional observations from a re-analysis of the deposited data

Results flagged for a closer look

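In 5 pairs of ES lines, the difference between Sox2KE-alone sites and another class had opposite signs in every library of the 2 lines. These differences between lines were not tested. The sites of each class were chosen by Sox peaks of 1 line, so the choice itself favours opposite signs in the lines of the 2 classes.

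Against Sox17-alone sites, the Oct4 share of Sox2KE-alone sites was higher by 60.8 and 47.6 points in the Sox2KE line and differed by -60.5 points in the Sox17 line, so that the 2 lines were 115 points apart. The Sox2 line, at 7.94 and 3.40 points, was 66.2 points apart from the Sox17 line. Against Sox17EK-alone sites, Sox2KE-alone sites were higher by 65.2 and 53.3 points in the Sox2KE line. The Sox2 line lay 79.2 points below that, at -19.7 and -20.3, the Sox17 line 98.6 points below, at -39.4, and the Sox17EK line 121 points below, at -58.1 and -66.3. In 4 groups of libraries, a check for 1 library far from the others, by its gap relative to the range, flagged none. Such a check can miss a library where the range is wide or a replicate lies beside it. Against Sox17-alone sites, the Sox17 line at -60.5 points lay far below the next lowest library, Sox17EK-line B at -3.75.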

How the results depend on the processing

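None of the 4 tests over libraries passed the adjusted threshold in any setting, and the smallest adjusted p was 0.0625, of the sign-flip test. This was largely set by the design. The exact permutation test between lines could not give p below 0.0952. The sign-flip tests over 7 libraries could not give p below 0.0156, or 0.0625 after adjustment unless another test was low as well. Not passing therefore says little about the differences. The difference between the Sox2KE line and the other lines was 21.7 to 67.2 points over 16 alternatives, and that from sites of Sox2 and Sox2KE only -23.9 to -4.25 points. With permutations within the replicate letters as a block, the difference between lines stayed 52.7 points, with an exact permutation p of 0.167, the smallest of 12 assignments. With 1 Oct4 library left out at a time, it ran between 46.7 and 58.6 points, the difference from sites of Sox2 and Sox2KE only between -21.5 and -13.1, that from Sox17-alone sites between -0.814 and 19.4, and that from Sox17EK-alone sites between -25.1 and -3.15. The Sox17 F9+RA share was 18.2% with the site inside the peak interval and 24.7% within 500 bp, where Oct4 in F9+RA minus F9 was 10.1 points. Union shares of the F9 lists were not computed under these settings. The number of sites was 420 where no other Sox peak overlapped, and 846 and 1885 with 1 Sox2KE library left out. The other alternatives left 514 to 797 sites. Read depth was unknown, so a missing peak does not show that a protein was absent.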
